A study of Mus musculus with 27 samples.

Results

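Acta1, Ckm, Adipoq, Fabp4, Cfd, Krt14 and Krt5 mark skeletal muscle, fat and skin, the host tissues that lie around a graft under the skin of a mouse. They were read here by 10 probe sets chosen by their identifiers out of the 45101 on the array, with their genes as given in that choice: 2 for muscle, 5 for fat and 3 for skin. Allografts of medulloblastoma from Ptch+/-p53-/- mice were grown in the right flank of nu/nu mice, which were dosed with vehicle or with NVP-LDE225, an antagonist of the Hedgehog receptor Smo. All tumours of the series shared that Ptch+/-p53-/- genotype and that immunodeficient host. RNA of 21 tumours was hybridised, 1 tumour per array. There were 5 tumours resistant to LDE225 (2 given 20 and 3 given 160 mg/kg/day, both in divided daily doses) that were harvested on day 26 of treatment. A further 8 tumours sensitive to LDE225 received 20 mg/kg/day, on a once-daily schedule, for a short time. Of these mice 3 were harvested after 4 h, 3 after 16 h and 2 after 48 h. The 8 vehicle tumours were matched to these harvests, in the same numbers of mice. Animals are named here by the mouse number of their label, and the 48 h vehicle tumours are those of mice 1 and 3. Each array came from a separate mouse, so p-values rest on the spread between mice, and the number of arrays limits the precision. DNA of 6 tumours was measured on other arrays, and the labels do not link them to the RNA samples.

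As background, Acta1 encodes the actin of skeletal muscle thin filaments and Ckm the creatine kinase that buffers ATP in muscle fibres. Adipoq encodes adiponectin, a hormone secreted by adipocytes, Fabp4 a fatty acid carrier of adipocytes that macrophages also make, and Cfd the complement protease adipsin, which mouse adipocytes secrete. Krt14 and Krt5 encode the partner keratins of the basal cells of the epidermis. A subcutaneous graft can border on the thin muscle sheet of mouse skin and on the fat layer beneath it, and granule neuron precursors, the cells from which this tumour type arises, are not known for making any of these products. In RNA from a whole piece of tumour, a higher share of host cells, more RNA per host cell and expression by the tumour cells themselves cannot be told apart.

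The promoters of 4 of the genes are shown because the muscle genes and the fat genes each moved together across arrays. The set of promoter sequences used here (RefSeq, GRCm38.p6) had an entry for 6 of the 7 genes, and Fabp4, which that set lacks, is named only. Each window runs from 250 bases before the transcription start to 50 after it. Capitals mark the muscle motifs CANNTG (the E box) and the CArG box in Acta1 and Ckm, and CCAAT on either strand in Adipoq and Cfd, and no marked match overlaps another. The windows are chr8:123894726-123895025 on the minus strand for Acta1, and on the plus strand chr7:19410844-19411143 for Ckm, chr16:23146286-23146585 for Adipoq and chr10:79890603-79890902 for Cfd.
Acta1: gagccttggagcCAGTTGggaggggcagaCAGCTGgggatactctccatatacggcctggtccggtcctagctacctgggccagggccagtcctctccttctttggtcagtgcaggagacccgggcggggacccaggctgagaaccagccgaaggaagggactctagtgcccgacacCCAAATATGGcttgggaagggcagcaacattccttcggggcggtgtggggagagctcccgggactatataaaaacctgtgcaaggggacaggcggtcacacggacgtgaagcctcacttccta
Ckm: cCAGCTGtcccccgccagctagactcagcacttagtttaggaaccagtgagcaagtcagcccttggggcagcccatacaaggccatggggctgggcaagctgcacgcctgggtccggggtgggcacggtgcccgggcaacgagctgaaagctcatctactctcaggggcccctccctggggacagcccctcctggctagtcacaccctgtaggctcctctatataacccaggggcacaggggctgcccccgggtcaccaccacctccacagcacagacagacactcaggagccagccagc
Adipoq: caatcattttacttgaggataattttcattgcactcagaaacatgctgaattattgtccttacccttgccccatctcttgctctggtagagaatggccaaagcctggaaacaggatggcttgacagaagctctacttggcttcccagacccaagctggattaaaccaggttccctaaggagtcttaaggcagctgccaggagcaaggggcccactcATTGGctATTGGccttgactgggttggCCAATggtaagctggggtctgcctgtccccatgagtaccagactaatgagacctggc
Cfd: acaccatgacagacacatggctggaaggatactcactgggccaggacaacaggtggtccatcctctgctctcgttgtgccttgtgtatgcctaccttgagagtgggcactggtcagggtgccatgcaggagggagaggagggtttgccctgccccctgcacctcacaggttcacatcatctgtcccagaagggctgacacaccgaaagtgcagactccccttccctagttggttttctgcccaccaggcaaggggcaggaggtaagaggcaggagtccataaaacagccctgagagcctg
Acta1 held 2 matches to CANNTG, 1 CArG box and 1 TATAAA, and Ckm held 1 CANNTG. Adipoq held 3 CCAAT and 1 CANNTG, and Cfd held 3 CANNTG and 0 CCAAT. Among 32851 promoters of the same length, 72.3% held CANNTG, 1.6% the CArG box, 37.4% CCAAT and 13.6% TATAAA, on either strand. A match is a description of the letters, not a shown binding site.

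The deposited values are linear MAS5 signals, an intensity per probe set scaled by the authors, with array means between 221 and 256. An array's 40th percentile lay between 11.2 and 19.3, and a probe set was tested if it reached that percentile on at least 2 arrays. Of the 10 host marker probe sets 8 passed, among 32842 tested. Both Krt14 probe sets failed, with 0 arrays at or above the percentile. The ratio of 3' to 5' actin signal, a measure of RNA integrity, was 1.25 to 1.40 on the 9 arrays of the 48 h and resistant tumours and 1.53 to 1.91 on the 12 arrays of the 4 h and 16 h tumours. Its part in the results was not tested. Drug effects, resistant tumours against LDE225 and resistant tumours against vehicle are also given on 1 side of this split, which is not possible for comparisons between 4 h and 48 h.

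The muscle markers were high in most drug-exposed tumours and low in most vehicle tumours. Acta1 (1427735_a_at) ranged from 11.7 to 4239 across arrays. At 4 h its signal was 287, 1532 and 701 in LDE225 tumours, against 20.4, 92.8 and 75 in vehicle tumours. At 16 h it was 1283, 1680.2 and 151 in LDE225 tumours, against 1753, 134 and 11.7 in vehicle tumours. At 48 h the LDE225 tumours had 1091 and 4239, against 1379 and 70.4 in vehicle tumours. The 2 groups did not overlap at 4 h, where 7.27% of all probe sets were higher without overlap, whereas at 16 h and 48 h 1 vehicle tumour stood among or above the treated ones. The resistant tumours on the lower dose, 20 mg/kg/day, had Acta1 signals of 755 and 418, and those on 160 mg/kg/day had 847, 1461 and 1049. All 5 were above 6 of the 8 vehicle tumours, and the tumour at 1461 was also above the vehicle tumour at 1379.

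Ckm was dimmer and followed nearly the same order. It read 61.2, 219 and 105 in LDE225 tumours at 4 h, against 2.1, 13.8 and 10.8 in vehicle tumours. At 16 h the signals were 229.6, 605 and 19.1 in LDE225 tumours, against 401, 16.1 and 11 in vehicle tumours. At 48 h they were 196 and 1935 in LDE225 tumours, against 330.2 and 10.4 in vehicle tumours. The vehicle tumours of mouse 1 at 16 h and at 48 h were again the 2 high ones of their group. On the lower dose the resistant tumours had 88.7 and 48.5, and on the higher dose 343, 124 and 171, so the 2 doses did not overlap in either muscle gene, where 9.73% of all probe sets were higher without overlap, and neither gene passed the test between doses. Signals of different probe sets are not compared as amounts, since each has its own response.

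The fat markers were split otherwise: they were very high on 6 arrays and far lower on the other 15. Adipoq read 12.2, 18 and 23.9 in LDE225 tumours at 4 h, against 166, 30.1 and 22.3 in vehicle tumours. At 16 h it was 167, 1633 and 87.2 in LDE225 tumours, against 805, 28.3 and 38.6 in vehicle tumours. At 48 h it reached 2130.4 and 3964 in LDE225 tumours, against 1213 and 7.9 in vehicle tumours. Both treated tumours were thus the highest at 48 h, while the 4 h treated tumours were among the lowest of all. The lower-dose resistant tumours read 29.9 and 236 and the higher-dose ones 527, 12.5 and 9, with mouse 1 of the higher dose alone in the high range.

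Cfd (1417867_at) gave the widest range, from 0.4 to 7188. In LDE225 tumours at 4 h it read 5.4, 57.8 and 60.1, against 497, 15.9 and 22 in vehicle tumours. At 16 h it read 180.4, 5879.8 and 32.1 in LDE225 tumours, against 2977, 39.3 and 81.8 in vehicle tumours. At 48 h it read 4025 and 7188 in LDE225 tumours, against 3053 and 0.4 in vehicle tumours. The single vehicle tumour at 0.4 lies below the added offset of 4, so its distance from the rest is bounded by that offset. Among resistant tumours Cfd was 7.9 and 76.9 on the lower dose and 1304, 4.3 and 3.8 on the higher, so 3 of the 5 were under 10.

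Fabp4 was read by 3 probe sets, which share their target and are not independent. The bright one, 1417023_a_at, gave 113, 237 and 146 in LDE225 tumours at 4 h, against 888, 255 and 184 in vehicle tumours. At 16 h it gave 387, 5385 and 619.5 in LDE225 tumours, against 4087, 111 and 251 in vehicle tumours. At 48 h it gave 5203 and 7260.5 in LDE225 tumours, against 4205.5 and 103 in vehicle tumours. The high arrays were those of Adipoq and Cfd, and no tumour was high in 1 of these genes alone. In resistant tumours it gave 84.9 and 263.5 on the lower dose and 2938, 120.5 and 55.2 on the higher. The other Fabp4 probe sets stayed dim: 1424155_at ran from 0.3 to 66.7 with a median of 3.1, and 1425809_at from 0.4 to 49.6 with a median of 7.2. Each reached its array's 40th percentile on 5 arrays, whereas 1417023_a_at did so on all 21. Those 5 all had high fat markers, so the dim probe sets passed the filter only through arrays where fat was high.

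**Figure D1:**
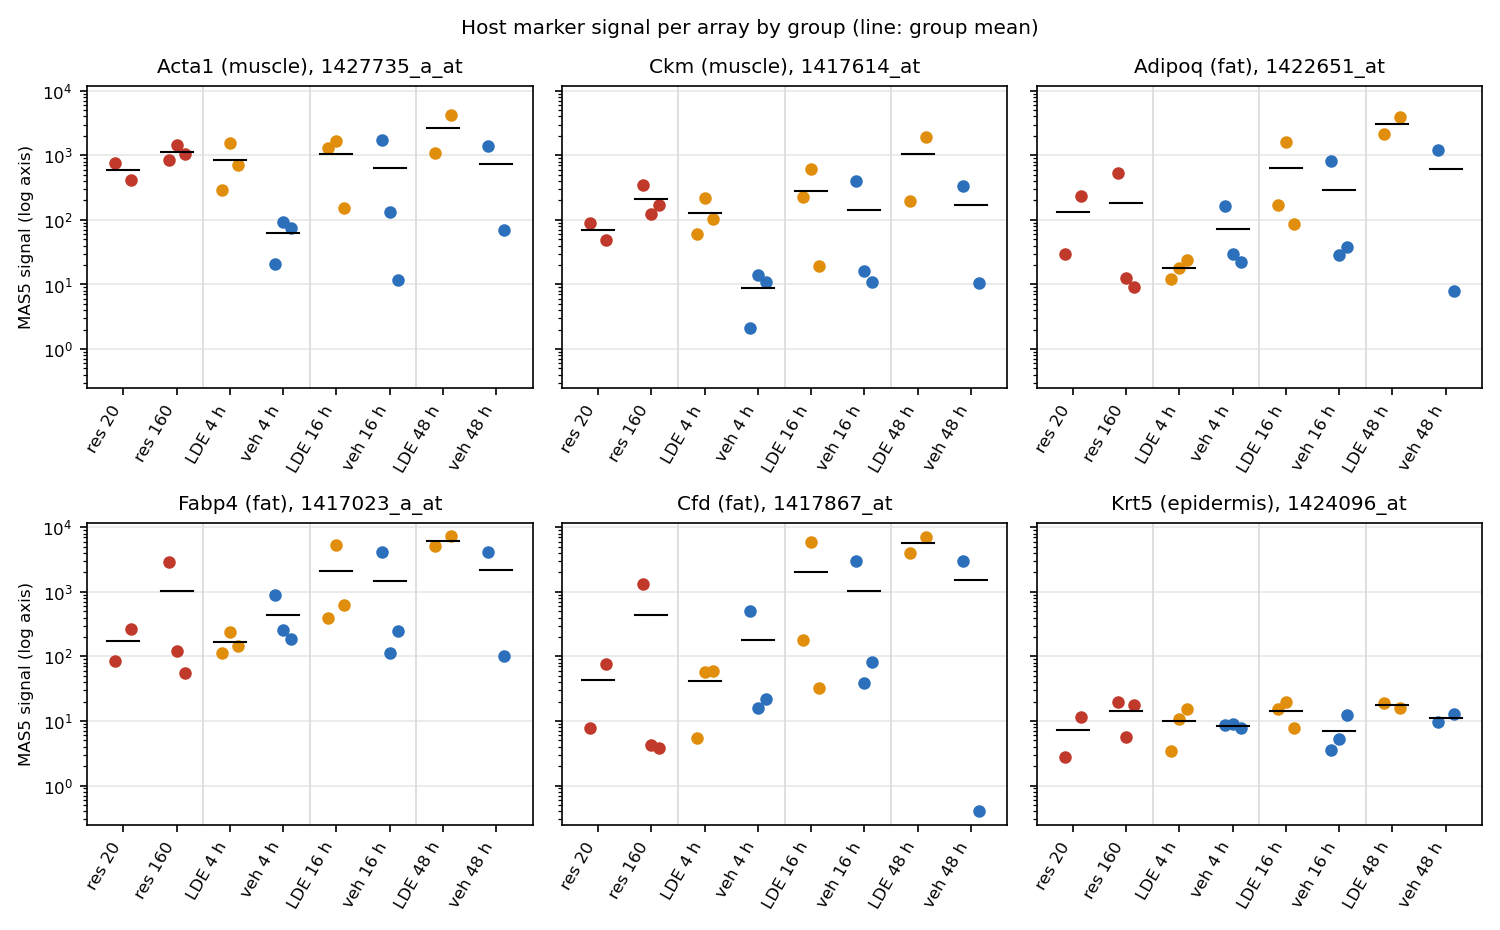
MAS5 signal (log axis) of 6 host marker probe sets on each of the 21 arrays, by group, with resistant tumours in red, LDE225 tumours in orange, vehicle tumours in blue and a line at each group mean. Acta1 and Ckm separate the 4 h groups, Adipoq, Fabp4 and Cfd are split between very high and low arrays within several groups, and Krt5 stays between 2.8 and 19.6 throughout.

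The skin markers were dim. Krt14 lay mostly near the bottom of the arrays, and Krt5 between their percentiles 16.7 and 45.1, with a median of 35.5. Krt14 had a median of 0.9 (range 0.3 to 8.6) at 1423935_x_at and of 1.4 (range 0.5 to 5.7) at 1460347_at. Its 2 probe sets were unrelated across arrays, with r = 0.0433 and Spearman's rho = 0.0460 (permutation p = 0.856 and 0.842, n = 21). Krt5 lay between 2.8 and 19.6 and reached its array's 40th percentile on 7 of 21 arrays. It averaged 11.4 ± 7.27 in resistant (SD, n = 5), 13.4 ± 5.62 in LDE225 (n = 8) and 8.64 ± 3.19 in vehicle tumours (n = 8). The name of skin marker is thus not borne out by these 3 probe sets. Krt14 stayed under the 40th percentile throughout, and Krt5 was too dim to tell epidermal RNA from background. No detection call was used, and this does not show that epidermal RNA was absent.

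Within groups the muscle and fat markers varied more than nearly any other transcript. The SD within groups on the log2(signal + 4) scale was 3.43 for Cfd, the highest of all 32842 probe sets. It was 2.35 for Adipoq (rank 11), 2.14 for Fabp4 1417023_a_at (rank 18), 1.90 for Acta1 (rank 29) and 1.87 for Ckm (rank 33). The median over all probe sets was 0.33 and the 99th percentile 1.07. The dim Fabp4 probe sets had 1.13 (1424155_at, rank 253) and 0.95 (1425809_at, rank 574), and Krt5 had 0.56 (rank 6726). Group membership held 36.7% to 52.4% of the variance of the 8 probe sets, where the median over all tested was 58.4%. The limma model used for the comparisons draws the spread of each probe set toward that of the others. Its standard errors and p-values for the muscle and fat markers therefore rest on a smaller spread than the SDs given here.

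**Figure D2:**
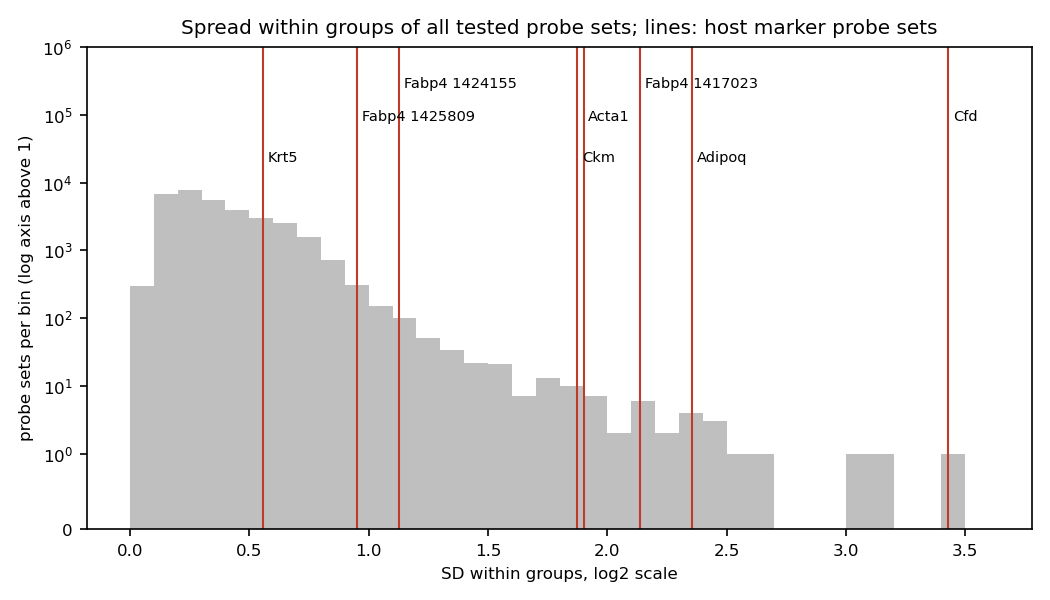
Number of probe sets (log axis above 1) by SD within groups on the log2 scale, for all tested probe sets, with red lines at the 8 tested host marker probe sets. Cfd at 3.43 is the highest value on the array, and Adipoq, Fabp4 1417023_a_at, Acta1 and Ckm all lie beyond the 99th percentile of 1.07.

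Markers of 1 tissue moved together, and the 2 tissues only partly did. Over 21 arrays Acta1 and Ckm had r = 0.940 and rho = 0.942 (permutation p = 1e-05 for both, the smallest that 100000 resamples can give, and 6.43e-05 and 0.000112 after Benjamini-Hochberg adjustment over 45 pairs). Without the 2 arrays farthest from the median of Acta1 r was 0.958, of deviations from group means 0.907, and within the actin split 0.922 (n = 9) and 0.948 (n = 12). Fat levels formed separate clusters, so their relations are given within them. The split, placed after the values were seen, is between 6 arrays with Fabp4 1417023_a_at of 2938 to 7260.5 and 15 arrays with 55.2 to 888. Since it uses a fat marker, the ranges within each cluster are narrowed.

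Within the 15 lower arrays the fat genes still followed each other. Adipoq and Fabp4 had r = 0.783 and rho = 0.789, and Adipoq and Cfd r = 0.803 and rho = 0.804. Fabp4 and Cfd had r = 0.786 and rho = 0.754. The permutation p-values of r were 0.00056, 0.00021 and 0.00059 in that order (adjusted over 20 relations 0.00295, 0.0021 and 0.00295), and those of rho 0.0007, 0.0006 and 0.00187. Without the 2 arrays farthest from the median r was 0.871, 0.815 and 0.787. Within the 6 high arrays r for the same pairs was 0.973, 0.907 and 0.972 (exact permutation p = 0.00556, 0.0139 and 0.00278). Muscle and fat were not related within the 15 lower arrays beyond what permutation gave: Acta1 with Adipoq had r = -0.165 (p = 0.555) and rho = -0.175 (p = 0.533), and Ckm with Adipoq r = -0.178 (p = 0.521) and rho = -0.118 (p = 0.676). Within the 6 high arrays the 6 muscle-fat relations were all positive, from r = 0.568 for Ckm with Adipoq (exact permutation p = 0.233) to 0.817 for Acta1 with Fabp4 (p = 0.0583). Acta1 with Cfd had r = 0.782 (exact permutation p = 0.0417, adjusted 0.104) and rho = 0.600 (p = 0.242). The signs for Acta1 did not hold without the 2 arrays farthest from its median. There r was 0.0610 with Cfd, -0.716 with Adipoq and -0.322 with Fabp4. For Ckm, without the 2 arrays farthest from its median, r was 0.652 with Adipoq, 0.773 with Fabp4 and 0.791 with Cfd. Of the 10 pairs of a muscle with a fat probe set, 6 passed when all 21 arrays were pooled over both clusters. Acta1 and Ckm kept r = 0.949 in the 15 lower arrays (permutation p = 1e-05).

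The 21 arrays therefore differed in which host markers were high. Taking 400 for Acta1 and 2000 for Fabp4 1417023_a_at as lines, placed after the values were seen, 6 arrays were above both, 7 above the Acta1 line alone, 0 above the Fabp4 line alone and 8 above neither. The 6 arrays above both were 1 resistant, 3 LDE225 and 2 vehicle tumours. The 7 arrays with muscle alone were 4 resistant, 3 LDE225 and 0 vehicle tumours. Those above neither were 2 LDE225 and 6 vehicle tumours.

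**Figure D3:**
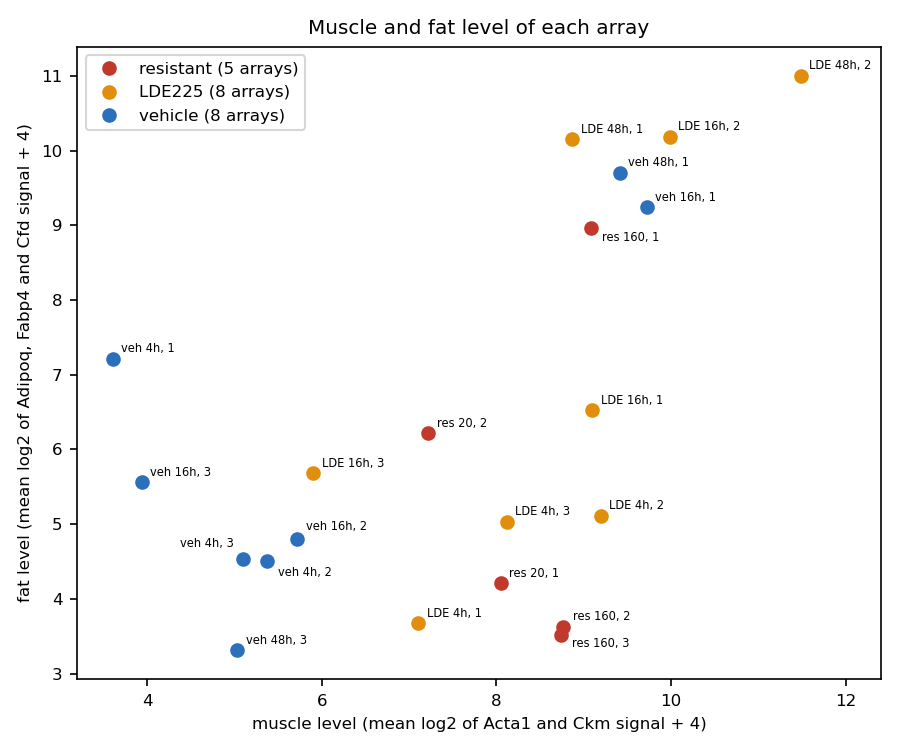
Fat level (mean log2 of Adipoq, Fabp4 and Cfd signal + 4) against muscle level (mean log2 of Acta1 and Ckm signal + 4) for each array, labelled with group and mouse number, with resistant tumours in red, LDE225 in orange and vehicle in blue. The 6 arrays with a fat level of about 9 or more also have a muscle level of nearly 9 or more. The region with a muscle level of 7.1 or more and a fat level of 6.53 or less holds 4 resistant tumours, the LDE225 tumours of 4 h and the LDE225 tumour of mouse 1 at 16 h.

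The first comparisons concern the drug in sensitive tumours. At 4 h, 0 of the 8 tested host marker probe sets passed the threshold (limma, adjusted p under 0.05) and 2 had an unadjusted p under 0.05, where 0.104% of all probe sets passed. Acta1 and Ckm did not overlap between the groups and were higher under LDE225, where 7.27% of all probe sets were higher without overlap. Their differences were 3.57 (SE 1.29) and 3.32 (SE 1.27) on the log2(signal + 4) scale, with adjusted p = 0.648 and 0.683 over all probe sets. At 16 h, 0 passed and 0 had an unadjusted p under 0.05, where 14.4% of all probe sets passed. None of the 8 was free of overlap there, against 35.8% of all probe sets in either direction. At 48 h, 0 passed and 1 had an unadjusted p under 0.05, where 22.7% passed. All 8 differences were positive at 48 h, with a median of 2.96, where the median over all probe sets was 0.09. This count and median include the dim Fabp4 probe sets and add no support. Adipoq, Cfd, Krt5, Fabp4 1417023_a_at and Fabp4 1425809_at did not overlap at 48 h, with 2 arrays a side, where 35.2% of all probe sets were higher without overlap. Fabp4 1425809_at passed the filter only through arrays with high fat markers, so it adds no support. In simulated data the model found 68% of changes of 2 on the log2 scale at 48 h, for transcripts of ordinary spread.

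Averaged over the 3 times, both muscle genes rose under LDE225. Acta1 averaged 1371 ± 1284 in LDE225 tumours and 442 ± 702 in vehicle tumours (SD, n = 8 each), a mean difference over times of 2.83 (SE 0.80, limma adjusted p = 0.0159). Ckm averaged 421 ± 637.5 in LDE225 tumours and 99.4 ± 165 in vehicle tumours (SD, n = 8 each), a difference of 2.69 (SE 0.79, adjusted p = 0.0199). These 2 of 8 stood beside 22.4% of all probe sets that passed, in either direction, and 12.2% that passed as higher. The median over the 8 was 1.34 and over all probe sets 0.08. Vehicle Ckm signals of 2.1, 10.8, 11 and 10.4 lay under the 40th percentile of their arrays, so the size of the Ckm difference is poorly resolved. Fat members were not called: the differences were 1.60 for Adipoq (95% interval -0.49 to 3.68), 1.08 for Fabp4 1417023_a_at (-0.82 to 2.97) and 1.74 for Cfd (-1.29 to 4.77). Each muscle difference was positive at every time, at 2.16 for Acta1 and 1.58 for Ckm at 16 h and at 2.75 and 3.17 at 48 h, so both sides of the actin split gave the same sign. Without the vehicle tumour of mouse 3 at 48 h Acta1 had 2.12 (adjusted p = 0.0917) and Ckm 1.93 (adjusted p = 0.114), and without the LDE225 tumour of mouse 2 at 48 h they had 2.50 (0.0627) and 2.14 (0.0925), so either array decides both calls. Without the vehicle tumour of mouse 1 at 48 h, Adipoq (2.71, adjusted p = 0.0432) and Fabp4 1424155_at (1.54, adjusted p = 0.0339) passed as well, where 22.5% of all probe sets did. Leaving out a 48 h tumour leaves its group with 1 array, which is assumed to vary like the other groups, and in vehicle mouse 3 at 48 h the Ckm signal and all fat signals but the bright Fabp4 one are below that array's 40th percentile of 11.4.

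Whether the effect of the drug changed with time was tested directly. At 16 h minus at 4 h 0 of 8 passed, where 3.83% of all probe sets did, and 0 had an unadjusted p under 0.05. At 48 h minus at 4 h 0 of 8 passed, where 12.8% did, and 1 had an unadjusted p under 0.05. The fat genes had the widest differences of effect there, 5.91 (SE 2.52) for Adipoq and 6.47 (SE 3.67) for Cfd, with adjusted p = 0.136 and 0.273. Both passed without the vehicle tumour of mouse 1 at 48 h (adjusted p = 0.0174 and 0.0453, where 13.7% of all probe sets passed), but that fit reads the effect at 48 h against 1 vehicle array with Adipoq at 7.9 and Cfd at 0.4, both under its 40th percentile, so the sizes are not given as measured changes. Among vehicle tumours alone, 48 h against 4 h, 0 of 8 passed where 0.746% did, and all 8 differences were positive with a median of 1.26. Krt5 and Fabp4 1425809_at, again a dim probe set, did not overlap in that comparison, where 16.2% of all probe sets were higher without overlap. Both this comparison and the effect at 48 h minus at 4 h lie wholly across the actin split, with ratios of 1.25 to 1.33 at 48 h and 1.53 to 1.87 at 4 h, so time and this measure of RNA integrity cannot be told apart.

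The next comparison set resistant tumours against sensitive tumours exposed to the same drug for 16 h and 48 h. The sides also differ in schedule (divided against once-daily doses), in length of treatment and, for the resistant tumours on the higher dose, in dose. These cannot be told apart from resistance. All 3 fat genes fell in the resistant tumours relative to these 5 LDE225 tumours. Fabp4 1417023_a_at averaged 692.5 ± 1258 in resistant and 3771 ± 3091 in LDE225 tumours (SD, n = 5 each), and fell by 3.65 on the log2 scale (SE 1.15, limma adjusted p = 0.0238). Adipoq averaged 163 ± 225 in resistant and 1596 ± 1598 in LDE225 tumours, and fell by 3.81 (SE 1.26, adjusted p = 0.0314). Cfd averaged 279 ± 574 in resistant and 3461 ± 3263 in LDE225 tumours, and fell by 5.19 (SE 1.83, adjusted p = 0.0423). Among the resistant signals, 7.9, 4.3 and 3.8 for Cfd and 12.5 and 9 for Adipoq lay under the 40th percentile of their arrays. The sizes of the falls in Cfd and Adipoq are thus poorly resolved. The LDE225 tumours of 4 h are not in this comparison. They averaged 18.0 ± 5.85 for Adipoq, 165 ± 64.1 for Fabp4 and 41.1 ± 30.9 for Cfd (SD, n = 3), below the resistant means. Those means include mouse 1 at 160 mg/kg/day, with 2938 for Fabp4 and 1304 for Cfd. The resistant median was above that of 4 h for Adipoq (29.9 against 18). It was below it for Fabp4 (120.5 against 145.9) and Cfd (7.9 against 57.8). These differences were not tested. The 3 calls of 8 stood beside 26.7% of all probe sets that passed and 13.2% that passed as lower. All 8 differences were negative, with a median of -1.55, where the median of all probe sets was -0.01. The 8 include 3 probe sets of Fabp4, and the dim ones passed the filter only through arrays with high fat markers. This count and median therefore add no support. The groups overlapped at all 8 probe sets, where 11% of all probe sets did not overlap. Muscle did not pass: Acta1 differed by -0.64 (SE 1.02) and Ckm by -1.37 (95% interval -3.48 to 0.74).

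The fat calls between resistant and LDE225 tumours rest on single arrays. Leaving out an LDE225 tumour of 48 h or a resistant tumour at 20 mg/kg/day leaves that group with 1 array. Its spread is then taken from the other groups, which limits those fits. None of the 3 passed without the LDE225 tumour of mouse 2 at 16 h (Adipoq -3.19, Fabp4 -3.07, Cfd -4.17, lowest adjusted p = 0.0624), of mouse 1 at 48 h (-4.03, -3.77, -5.40, 0.0563) or of mouse 2 at 48 h (-3.58, -3.53, -4.99, 0.0727). The same held without mouse 1 at 20 mg/kg/day (-3.10, -3.25, -4.50, 0.0964) or mouse 3 at 160 mg/kg/day (-3.33, -3.09, -4.57, 0.0562) among the resistant tumours. Without mouse 2 at 160 mg/kg/day only Fabp4 passed (-3.35, adjusted p = 0.0443), with Adipoq at -3.42 (0.0600) and Cfd at -4.59 (0.0808). Cfd alone was lost without the LDE225 tumour of mouse 1 at 16 h (-5.42, adjusted p = 0.0540) or the resistant tumour of mouse 2 at 20 mg/kg/day (-5.89, 0.0570). Without mouse 1 at 160 mg/kg/day, the resistant tumour with high fat markers, all 5 fat probe sets passed, where 27.1% of all probe sets did, with Cfd at -6.42 (adjusted p = 0.00952). On 1 side of the actin split, against the LDE225 tumours of 48 h alone, the same 5 passed, where 29.9% of all probe sets did. The differences were -5.46 for Adipoq (adjusted p = 0.0167), -4.89 for Fabp4 1417023_a_at (0.0180) and -7.19 for Cfd (0.0286). In both fits the 5 include the dim Fabp4 probe sets. These passed the filter only through arrays with high fat markers, so their calls add no support.

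Against vehicle the resistant tumours showed no call among the 8 (limma), where 10.8% of all probe sets passed, and 1 had an unadjusted p under 0.05. Acta1 changed most: it averaged 906 ± 385 in resistant (SD, n = 5) and 442 ± 702 in vehicle tumours (SD, n = 8), with a difference of 2.47 (SE 0.92, adjusted p = 0.0918). It passed without the vehicle tumour of mouse 1 at 16 h (3.05, adjusted p = 0.0166). Without that of mouse 1 at 48 h, which leaves 1 array in its group, the difference was 3.17. Against the 2 vehicle tumours of 48 h alone, the only ones on the same side of the actin split, the difference was 1.30 (adjusted p = 0.734). Ckm differed by 1.78 (95% interval -0.12 to 3.68), Adipoq by -0.40 (-2.78 to 1.98), Fabp4 1417023_a_at by -1.23 (-3.39 to 0.92) and Cfd by -1.68 (-5.14 to 1.78). The groups overlapped at all 8, where 2.21% of all probe sets did not overlap. This comparison shares its resistant arrays with the one against LDE225 tumours and its vehicle arrays with the drug comparisons.

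Between the 2 doses of resistant tumours, 160 against 20 mg/kg/day, 0 of 8 passed (limma), where 0.773% of all probe sets passed, and 0 had an unadjusted p under 0.05. Ckm changed most, averaging 213 ± 115 at 160 mg/kg/day (SD, n = 3) and 68.6 ± 28.4 at 20 mg/kg/day (SD, n = 2), with a difference of 1.51 (SE 1.42, adjusted p = 0.694). Acta1 and Ckm did not overlap between the doses, where 9.73% of all probe sets were higher without overlap. For Acta1 the difference was 0.95 (95% interval -2.06 to 3.97).

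**Figure D4:**
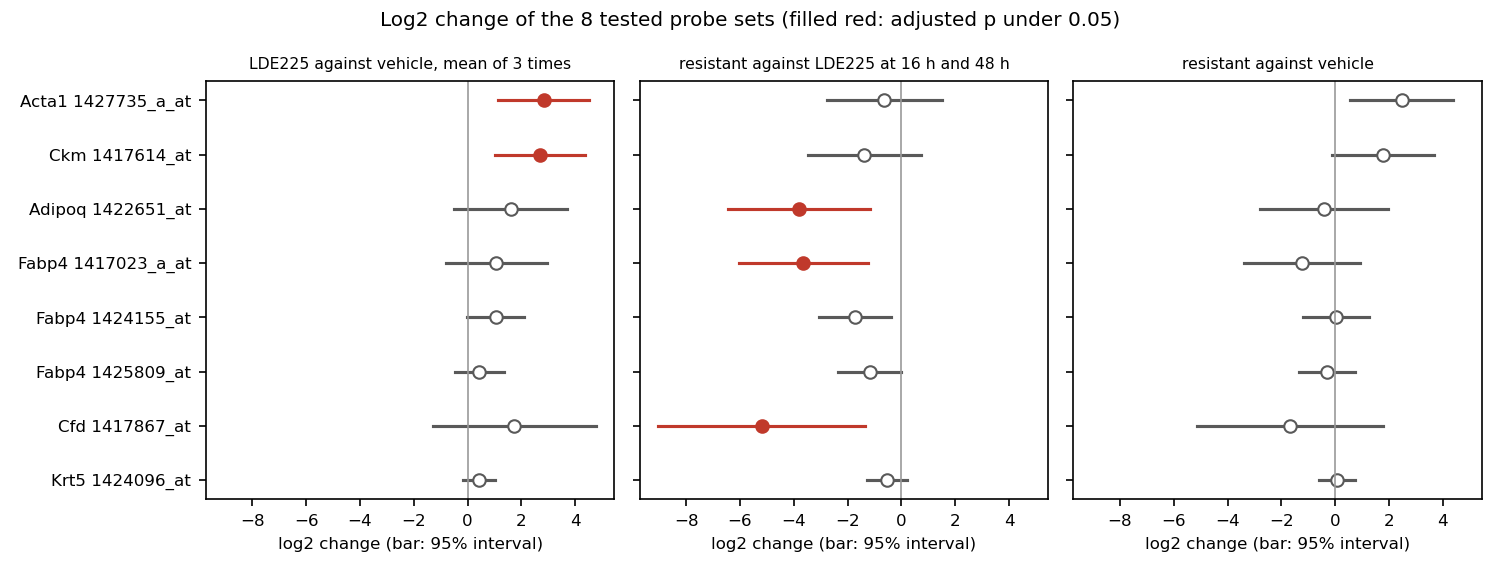
Log2 change with its 95% interval for the 8 tested host marker probe sets in 3 comparisons, with filled red points where the limma adjusted p was under 0.05. Acta1 and Ckm are above 0 for LDE225 against vehicle averaged over 3 times, Adipoq, Fabp4 1417023_a_at and Cfd are below 0 for resistant against LDE225 tumours, and no point is filled for resistant against vehicle.

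Probe sets beyond the host markers followed the same arrays. A tissue level was taken per array as the mean log2 value over the genes of a tissue, and its slope within groups was tested for 32834 other probe sets (limma). With the muscle level 64 probe sets passed (0.195%), all in the positive direction, and 28 to 172 without 1 array (lowest without the vehicle tumour of mouse 1 at 16 h). With the fat level 512 passed (1.56%), of which 500 (1.52%) were positive and 12 negative, and 212 to 906 without 1 array (lowest without the vehicle tumour of mouse 1 at 48 h). A replicate block left 36 for muscle and 163 for fat. With the skin level 0 passed (0%), and 1314 had an unadjusted p under 0.05. The muscle and fat lists shared 18 positive probe sets, which were 28.1% of the muscle list and 3.6% of the fat list.

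The probe sets most like each tissue in their deviations from group means are given by identifier, without gene names. Muscle was followed most closely by 1416889_at (r = 0.991 over 21 arrays, signal 2.2 to 1401) and 1417464_at (r = 0.982, 1.3 to 2233). Fat was followed by 1448881_at (r = 0.980, 0.6 to 1206) and 1451263_a_at (r = 0.977, 19.2 to 2188). For skin the nearest were 1420175_at (r = 0.882, 33.5 to 84.6) and 1444844_at (r = 0.843, 2.8 to 21.1), neither of which passed. These r values are the highest of 32834 and carry no test.

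The number of transcripts called in the series depended on whether the host levels entered the model. With muscle, fat and skin levels as covariates, and the host markers themselves left out, the mean of 3 times gave 2753 calls (8.38%), against 7365 without the covariates, with 2696 in common. Resistant against vehicle gave 755 calls (2.3%), against 3554, with 723 in common. For 160 against 20 mg/kg/day there were 63 calls (0.192%), against 259, with 58 in common. Leaving out 1 array gave 353 to 2676, 158 to 1249 and 0 to 473 calls in that order, the lowest without the LDE225 tumour of mouse 3 at 16 h for the mean of 3 times and without the resistant tumour of mouse 2 at 20 mg/kg/day for the other two. The covariates took 3 of the 13 residual degrees of freedom. Muscle level also differs between the groups compared, so a loss of calls to the covariate and a loss of the drug's own effect cannot be told apart. Levels chosen after seeing the data gave for the mean of 3 times 3957 calls with muscle alone and 3951 with muscle and fat, and adding the near-background skin level gave the 2753. For resistant against vehicle they gave 2586 calls with muscle, 3478 with fat, 3418 with skin and 1211 with muscle and fat.

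In DNA the ratio was far below 0 around Adipoq in every tumour and around Fabp4 in a single tumour. The value is the mean log2 ratio of tumour to wild-type liver DNA over the probes within 1 Mb of each gene's own probes (build mm8), on 1 array per tumour for 3 resistant tumours (40, 80 and 160 mg/kg/day) and 3 vehicle tumours, with no test. The labels of the tumour at 160 mg/kg/day disagree, since its title carries the word vehicle while its status, treatment and dose read resistant. Around Adipoq (probes at chr16:23067250-23073047) the ratio was -0.90, -0.83 and -0.86 in resistant tumours in order of dose, against -0.82, -0.81 and -0.85 in vehicle tumours. It was low in all 6 tumours by similar amounts. Around Fabp4 (chr3:10189164-10189223) it was 0.00, 0.00 and -0.62 in resistant tumours, against -0.03, -0.01 and -0.02 in vehicle tumours, and the median of chromosome 3 in the low tumour was -0.28.

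Around Acta1 (chr8:126777888-126777945) the DNA ratio was 0.30, 0.06 and 0.08 in resistant tumours, against 0.12, 0.10 and 0.11 in vehicle tumours. The median of chromosome 8 was 0.23, -0.05 and -0.03 in resistant tumours, against -0.01, -0.03 and -0.03 in vehicle tumours, so the ratio around Acta1 was above it in all 6. Around Cfd (chr10:79294267-79294326) the ratio was -0.08, -0.01 and -0.08 in resistant tumours, against 0.12, 0.05 and 0.07 in vehicle tumours, and it was also above the median of chromosome 10, which was -0.23, -0.17 and -0.22 in resistant and -0.03, -0.03 and -0.02 in vehicle tumours. The ratios around Ckm (chr7:18572369-18579662) and Krt14 (chr11:100022055-100022108) lay between -0.06 and 0.02 in resistant and between 0.05 and 0.11 in vehicle tumours. The SD over probes was 0.28 to 0.49 in resistant and 0.15 to 0.29 in vehicle tumours. Krt5 was not analysed here for DNA.

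**Figure D5:**
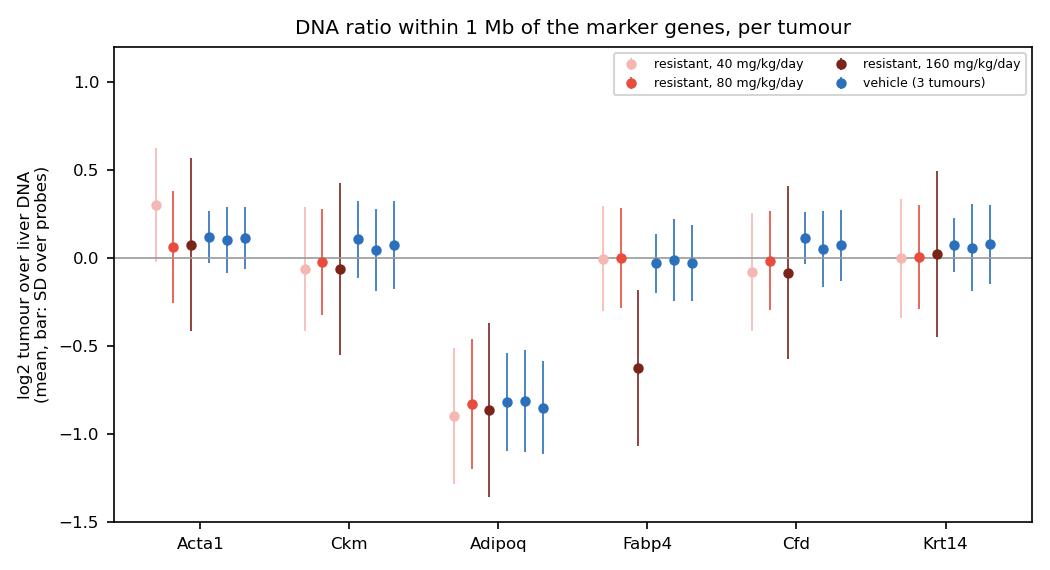
Mean log2 ratio of tumour over liver DNA within 1 Mb of 6 marker genes in each of 6 tumours, with bars for the SD over probes, resistant tumours in shades of red by dose and vehicle tumours in blue. Adipoq lies between -0.90 and -0.81 in every tumour, and Fabp4 is low, at -0.62, in the resistant tumour at 160 mg/kg/day.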

How the data were processed

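The deposited RNA table holds linear MAS5 signal intensities per probe set, made by the authors with MAS5 per the submitters' processing notes; version and scaling target are not given in the sources used here. After that scaling the medians of the arrays still ran from 21.6 to 36.1, and scaling to 1 median was an alternative. The deposited scanner files give processed intensities and log10 ratios of tumour (Cy5) over liver (Cy3) from Agilent Feature Extraction 9.5.3.1 on build mm8, per the file headers and labels. The log10 ratio served as an alternative.

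An offset of 4 was added before log2, which understates changes of dim probe sets. The 64 control probe sets were left out, and a probe set had to reach its array's 40th percentile on 2 arrays. One limma 3.58.1 model (R 4.3.3, mean-variance trend) of 8 groups over 21 arrays gave 10 comparisons, two-sided, Benjamini-Hochberg adjusted over 32842 probe sets, with 13 residual degrees of freedom. The model was tested on simulated data: it found 72% of changes of 1 and 98.5% of changes of 2 on the log2 scale in the mean of 3 times, and 61% and 94% for resistant against vehicle (200 of 32842 probe sets changed). Correlations used log2 values and 100000 permutations (Python 3.11.15, scipy 1.17.1), or all permutations for 6 arrays. The median autosomal ratio of an array was subtracted from its DNA ratios. The closest pair of RNA arrays had a correlation of 0.979, and no arrays were duplicates.

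The members and lists were chosen with earlier results of these data known. No table used here pairs probe sets with genes, so the wider marker lists could not be read, and only the 10 probe sets are named by gene; others are given by identifier as the 2 most like each tissue. Changes were given for members past the threshold and, in 3 comparisons, for the largest change; further members are given with intervals, chosen after their values were seen. Replicate numbers did not pair the mice (correlation of deviations between same-numbered arrays -0.201 to 0.180). Alternatives covered the offset, scaling, filter, trend, weights, block, sample choice, covariates and window.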

Additional observations from a re-analysis of the deposited data

Results flagged for a closer look

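One Krt14 probe set, 1423935_x_at, moved in opposite directions under LDE225 at 2 times. At 16 h the LDE225 tumours read 0.5, 0.9 and 0.7, against 1.7, 3.8 and 2.2 in vehicle tumours. At 48 h the LDE225 tumours read 2.6 and 2.1, against 0.7 and 0.9 in vehicle tumours. On the log2(signal + 4) scale the effect at 48 h minus that at 16 h was 0.87. The difference was not tested, since the probe set did not pass the filter on low values: all these signals lie below the offset of 4 and below the 40th percentile of their arrays. The other Krt14 probe set read 5.7, 2.1 and 0.8 in LDE225 tumours at 16 h, against 0.5, 1.3 and 1.6 in vehicle tumours, and 0.7 and 2.4 at 48 h, against 0.5 and 1.4.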

How the results depend on the processing

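The settings tried were an offset of 1 or 32, quantile normalization, scaling to 1 median, no filter, no trend, array weights, a replicate block and other samples. They changed 6 of 92 counts of host markers called. At 4 h the fit of only the groups compared called 2 (Acta1 and Ckm), where 0.359% of all probe sets passed. For resistant against LDE225 tumours no trend left 1 call (Fabp4), where 25.1% of all probe sets passed, and the 48 h arrays alone gave 5, where 29.9% did. In the same comparison offset 1, no filter and array weights gave 2 each, where 25.4%, 18.3% and 27.3% of all probe sets passed. Cfd there missed the threshold with offset 1 (-5.51, adjusted p = 0.0513), no filter (-5.19, 0.0501), no trend (-5.19, 0.0714) and array weights (-4.74, 0.0650), and Adipoq with no trend (-3.81, 0.0555). No sign reversed. The median of all probe sets was shifted by scaling to 1 median, to -0.31 at 48 h, -0.13 in the mean of 3 times and -0.15 for resistant against vehicle, where the host markers had 2.54, 1.15 and -0.26.

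Leaving out 1 array gave 0 to 0 calls among the host markers at 4 h, for the effect at 16 h minus at 4 h, for 160 against 20 mg/kg/day and between vehicle times. At 16 h it gave 0 to 1 (Acta1, without the vehicle tumour of mouse 1, where 8.67% of all probe sets passed). For resistant against vehicle it gave 0 to 1. Acta1 passed without the vehicle tumour of mouse 1 at 16 h, where 9.63% of all probe sets did. For resistant against LDE225 it gave 0 to 5, the 5 without mouse 1 at 160 mg/kg/day, where 27.1% of all probe sets passed. At 48 h, for the mean of 3 times and for the effect at 48 h minus at 4 h, counts moved only without a 48 h tumour. Such a fit leaves 1 array in a group and takes its spread from the other groups, so these counts are not listed here. Outcomes given elsewhere for fits without a 48 h tumour or a resistant tumour at 20 mg/kg/day share this limit. Without mouse 1 the vehicle array left at 48 h, mouse 3, has Ckm, Adipoq, Cfd and the dim Fabp4 probe sets under its 40th percentile.

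With host levels in the fit, leaving out 1 array gave 353 to 2676 calls for the mean of 3 times (lowest without the LDE225 tumour of mouse 3 at 16 h), 158 to 1249 for resistant against vehicle and 0 to 473 for 160 against 20 mg/kg/day (both lowest without the resistant tumour of mouse 2 at 20 mg/kg/day). With 1 probe set per tissue resistant against vehicle gave 1516 and 160 against 20 gave 37, and offset 32 gave 129 for the doses. Levels alone, chosen after seeing the data, gave for the mean of 3 times 3957 (muscle), 6458 (fat), 6320 (skin) and 3951 (muscle and fat), for resistant against vehicle 2586 (muscle), 3478 (fat), 3418 (skin) and 1211 (muscle and fat), and for the doses 159, 303, 282 and 168 in that order.

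Probe sets that followed muscle numbered 123 with offset 32 and 115 with 1 probe set per tissue, and 28 to 172 without 1 array (lowest without the vehicle tumour of mouse 1 at 16 h, highest without that of mouse 1 at 4 h). Those that followed fat numbered 212 (without the vehicle tumour of mouse 1 at 48 h) to 906 (without the resistant tumour of mouse 2 at 160 mg/kg/day), and those that followed skin 0 to 0. The replicate block gave 36 for muscle, 163 for fat and 7 calls for 160 against 20 mg/kg/day with host levels, and it changed no count of host markers called. The causes were not tested. The pairs of host markers past the threshold over 21 arrays were 18 of 45, and 16 to 21 under the alternatives.

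Signals under the 40th percentile, 11.2 to 19.3, are poorly resolved, which touches both Krt14 probe sets, Krt5 and the dim Fabp4 probe sets. Groups of 2 arrays leave wide intervals.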
